A study of Homo sapiens with 10 samples.

Results

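The nuclear genes for subunits of mitochondrial complexes I, II and III were followed across RNA-seq libraries of 2 human lymphoma cell lines in which STAT3 had been targeted with short hairpin RNAs (shRNAs). They were taken by symbol: NDUFA, NDUFB, NDUFC, NDUFS or NDUFV followed only by digits, the 4 SDH subunits, and 8 UQCR subunits. This gave 49 of the 25275 symbols listed for each line. Of the 49, 37 carry complex I symbols (7 core and 30 accessory subunits), 4 belong to complex II and 8 to complex III. All 49 were above 0 in all 6 libraries and had a high enough level to be tested. The mitochondrially encoded subunits are not analysed here.

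OCI-LY10 and TMD8 are established lines of the activated B-cell-like type of diffuse large B-cell lymphoma. In OCI-LY10 the groups were STAT3 shRNA (1 library with shRNA 10 and 1 with shRNA 16) and control shRNA (1 library). In TMD8 there were 3 libraries, labelled as the same 3 shRNAs, so they include STAT3 shRNA 10 and 16. Their columns of values carry no names, so they served only as a range and a mean for that line. That mean mixes STAT3 shRNA and control libraries. Below, STAT3 shRNA libraries are those of OCI-LY10 unless TMD8 is named. Cells of all 6 libraries had been transduced and received doxycycline at 20 ng/ml for 2 days to induce the hairpin, controls included. No condition of OCI-LY10 had a second library of the same shRNA. The series also holds 4 ChIP-seq samples, which are not analysed here.

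The respiratory chain passes electrons from fuel molecules to oxygen and uses the energy to pump protons across the inner mitochondrial membrane. Complex I takes electrons from NADH, complex II takes them from succinate as part of the citric acid cycle, and both hand them to ubiquinone. Complex III then moves electrons from ubiquinone to cytochrome c. Core subunits of complex I carry its flavin, iron-sulfur clusters and proton channels, and accessory subunits surround and stabilise them. STAT3 is a transcription factor activated by cytokine receptors and JAK kinases, and a share of the protein has also been reported inside mitochondria.

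Values are FPKM, fragments per kilobase of gene scaled to the size of the library, so levels of different genes are compared per length. STAT3 itself had 11.1 and 10.6 FPKM with shRNA 10 and shRNA 16 in OCI-LY10, against 16.5 FPKM with control shRNA. It fell to 65.8% of the control level (log2 difference -0.56 ± 0.10 SE, adjusted p = 0.0465 in limma). It passed in 6 of 8 fits with other settings, with adjusted p from 0.0309 to 0.0688 in limma. STAT3 had 120.3, 24.3 and 22.5 FPKM in the 3 TMD8 columns.

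The OCI-LY10 control library stood with the TMD8 libraries rather than with the OCI-LY10 STAT3 shRNA libraries. Across 11022 genes, the log2 levels of the 2 STAT3 shRNA libraries had a Pearson r of 0.993 with each other and 0.845 with the control library, while the control library had 0.934 to 0.959 with the TMD8 libraries. Over the 49 subunits the same values were 0.994, 0.864 to 0.876, and 0.934 to 0.971. These are descriptions across genes that share libraries. Whether the control and STAT3 shRNA columns of OCI-LY10 hold the libraries their headers name could not be checked from the values. Every difference from the control or from TMD8 given here carries that doubt. All 7 B cell markers were detected throughout, with a summed level of 2378 to 2632 FPKM in the STAT3 shRNA libraries, 903 FPKM in the control library and 933 to 1094 FPKM in TMD8. Among these, MS4A1, CD79A and CD79B were higher with STAT3 shRNA than control, and CD22 was lower, at 23.0 and 29.3 FPKM with STAT3 shRNA, against 62.1 FPKM in the control and 79.4 to 95.8 FPKM in TMD8 (adjusted p = 0.0384 in limma). PAX5 and BLNK did not pass the test, and BLNK had 79.9 and 84.2 FPKM with STAT3 shRNA, 70.03 FPKM in the control and 133 to 142 FPKM in TMD8. T and NK cell markers summed to at most 0.411 FPKM and erythroid markers to at most 0.135 FPKM in any library. Myeloid markers summed to 0.619 to 0.980 FPKM with STAT3 shRNA, 1.60 FPKM in the control and 0.970 to 1.57 FPKM in TMD8. Stromal markers summed to 0.0839 to 0.110 FPKM with STAT3 shRNA, 6.55 FPKM in the control and 4.94 to 6.68 FPKM in TMD8. Among epithelial markers, EPCAM had 4.39 FPKM in both STAT3 shRNA libraries and was listed at 0 in the control and TMD8 libraries, while CDH1 was at most 0.0102 FPKM with STAT3 shRNA, 32.6 FPKM in the control and 15.8 to 17.2 FPKM in TMD8. Small RNA genes took 57.2% and 57.7% of the summed FPKM in the STAT3 shRNA libraries, 48.4% in the control and 22.1% to 43.1% in TMD8, while median-of-ratios size factors over the 6 libraries ran from 0.97 to 1.04. The part of these differences in the subunit results was not tested. Each subunit is therefore given against the control library and against TMD8. Against TMD8, differences of shRNA and of cell line cannot be told apart. In bulk RNA, fewer cells of a type and less RNA per cell cannot be told apart.

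Promoters of 41 of the 49 subunits were matched in RefSeq (GRCh38.p14). The 150 bases before the start of 3 genes are shown: UQCR11 and NDUFV2, which had the largest decreases with STAT3 shRNA, and SDHD, which had the largest increase. Capitals mark the letters of the ETS site bound by GABP (CCGGAAG or its reverse complement) and of the NRF1 core (GCATGCGC or its reverse complement), both regulators of many nuclear genes for mitochondrial proteins. In SDHD 2 matches of the NRF1 core overlap, and the NDUFV2 stretch holds none of the motifs searched.
UQCR11, chr19:1605463-1605612, minus strand: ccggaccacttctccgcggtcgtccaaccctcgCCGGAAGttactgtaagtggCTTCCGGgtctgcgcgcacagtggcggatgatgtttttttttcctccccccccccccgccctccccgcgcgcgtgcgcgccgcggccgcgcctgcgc
NDUFV2, chr18:9102549-9102698, plus strand: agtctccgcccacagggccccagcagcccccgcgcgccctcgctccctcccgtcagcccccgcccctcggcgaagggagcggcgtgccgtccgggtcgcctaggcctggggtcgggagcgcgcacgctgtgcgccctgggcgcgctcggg
SDHD, chr11:112086723-112086872, plus strand: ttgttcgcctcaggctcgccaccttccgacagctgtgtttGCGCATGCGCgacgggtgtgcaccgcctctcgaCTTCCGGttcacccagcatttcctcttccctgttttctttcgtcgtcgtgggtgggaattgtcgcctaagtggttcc

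Over the 300 bases from 250 before to 50 after each start, both strands, the STAT letters TTCNNNGAA were found in 2 of the 41 subunit promoters (4.88%), SDHB and NDUFA5, against 6.97% of 15843 promoters in the table. The stricter form TTCCNGGAA, which TTCNNNGAA contains, was in 0 of 41, against 1.14%. CCGGAAG was in 10 subunit promoters (24.4%), against 14.2%. GCATGCGC was in 7 (17.1%), against 4.26%, and the YY1 letters AAGATGGC were in 8 (19.5%), against 3.91%. CCAAT was in 11 (26.8%), against 36.4%. Both higher genes with a matched promoter, SDHD and NDUFB7, hold CCGGAAG, as do 3 of the 10 lower genes with a promoter (UQCR11, NDUFS1 and SDHB). GCATGCGC was in 1 of these 2 higher genes and 2 of the 10 lower, and AAGATGGC in 0 and 2. CCAAT and TTCNNNGAA were each in 0 higher genes and 1 lower gene. Whether any of these letters go with the direction of change was not tested. A match is only a description of these letters.

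Across the 6 libraries, the subunit genes were expressed over a wide range of levels. Mean levels ran from 17.0 FPKM for NDUFV3, an accessory subunit of the NADH-oxidising arm, to 887 FPKM for UQCRH, the hinge protein of complex III, with a median of 102 FPKM. Only 4 subunits (NDUFV3, NDUFA10, NDUFA5 and NDUFC2) averaged under 30 FPKM, and 9 averaged over 200 FPKM. Among core subunits of complex I the mean was lowest for NDUFS1 at 57.3 FPKM and highest for NDUFV2 at 271 FPKM. Among accessory subunits NDUFA3 was highest, at 366 FPKM. In complex II the mean ran from 40.7 FPKM for SDHC to 141 FPKM for SDHB, and in complex III UQCRB was lowest, at 33.4 FPKM. The subunits of 1 complex thus had unequal mRNA levels in every library.

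**Figure D1:**
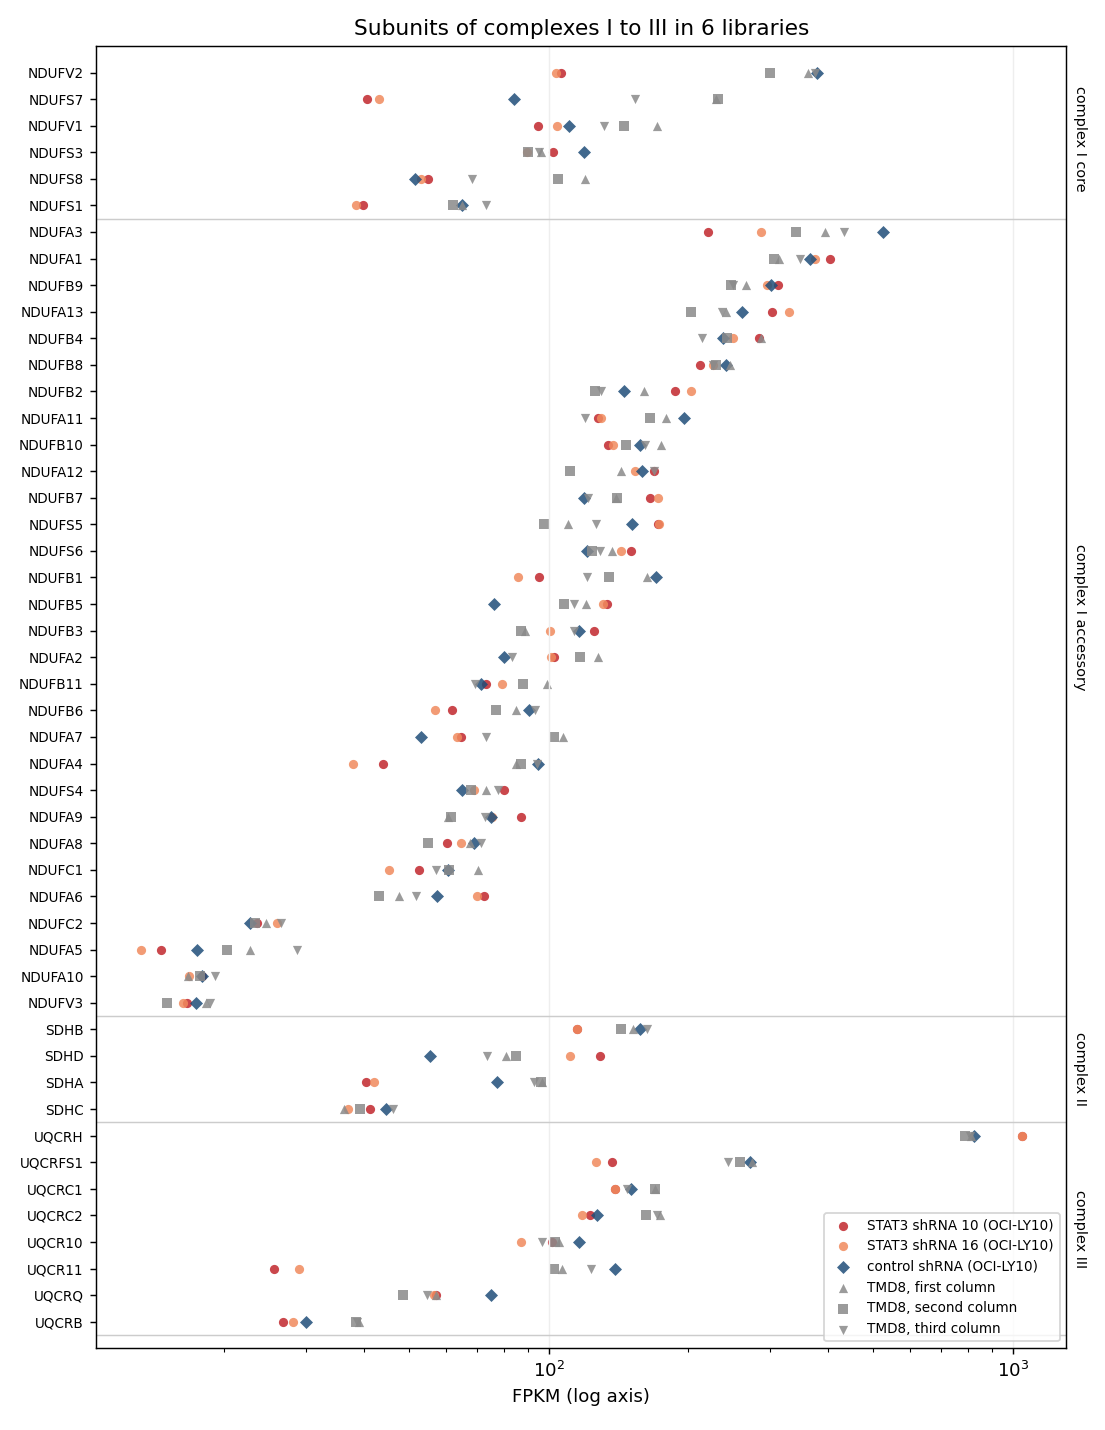
FPKM (log axis) of 48 of the 49 subunits in each of the 6 libraries, grouped by complex and sorted by mean level. Red and orange circles are the OCI-LY10 STAT3 shRNA libraries, blue diamonds the OCI-LY10 control library, and grey marks the 3 TMD8 columns; UQCRH lies alone at 787 to 1048 FPKM, and the red and orange marks of NDUFV2 and UQCR11 lie far left of the others.

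With STAT3 shRNA in OCI-LY10, 11 of the 49 subunits fell and 3 rose against the control library. A gene passed the test at a Benjamini-Hochberg adjusted p below 0.05 in limma on log2(FPKM + 1), adjusted over all 11162 genes whose level averaged 1 FPKM or more. The share that fell was 22.4% of subunits and 17.4% of all tested genes, and the share that rose was 6.12% of subunits and 20.3% of all tested genes. The median log2 difference was -0.12 over the 49 subunits and 0.06 over all tested genes, and 29 of the 49 lay below 0. The p-values rest on how far the 2 STAT3 shRNA libraries differ, a spread that may be technical, and the control library has no replicate. Reads could also be divided between a gene and its copies or overlapping genes: 26 subunits have numbered pseudogenes and 20 overlap another annotated gene in RefSeq, and any use of strand in counting is not known.

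Decreases were found in all 3 complexes. Of the 7 complex I core subunits, 3 fell, 0 rose and the median log2 difference was -0.38. Of the 30 accessory subunits, 4 fell and 2 rose. They are counted by symbol and so include NDUFA4, which fell and is now assigned to complex IV. Their median was 0.05 as deposited, but -0.02 after median-of-ratios scaling. Of the 4 complex II subunits, 2 fell and 1 rose, with a median of -0.32. Of the 8 complex III subunits, 2 fell and 0 rose, with a median of -0.21. After median-of-ratios scaling the median was -0.46 for core subunits, -0.39 for complex II and -0.29 for complex III. Over all tested genes that scaling moved the median from 0.06 to -0.007. The summed level of the complex I core subunits was 499 and 494 FPKM with STAT3 shRNA 10 and 16, 890 FPKM with control shRNA, and 1136, 1019 and 991 FPKM in TMD8. The accessory subunits summed to 3964 and 3925 FPKM with STAT3 shRNA, 4132 FPKM with control shRNA and 3643 to 4068 FPKM in TMD8. Thus the STAT3 shRNA sums lay below the other 4 libraries for the core subunits and within the TMD8 range for the accessory subunits. A large part of the core difference from control was 1 gene. NDUFV2 gave 106 and 103 FPKM of the core sums with STAT3 shRNA and 378 FPKM of that with control shRNA. Whether the core and accessory subunits differ in response was not tested.

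**Figure D2:**
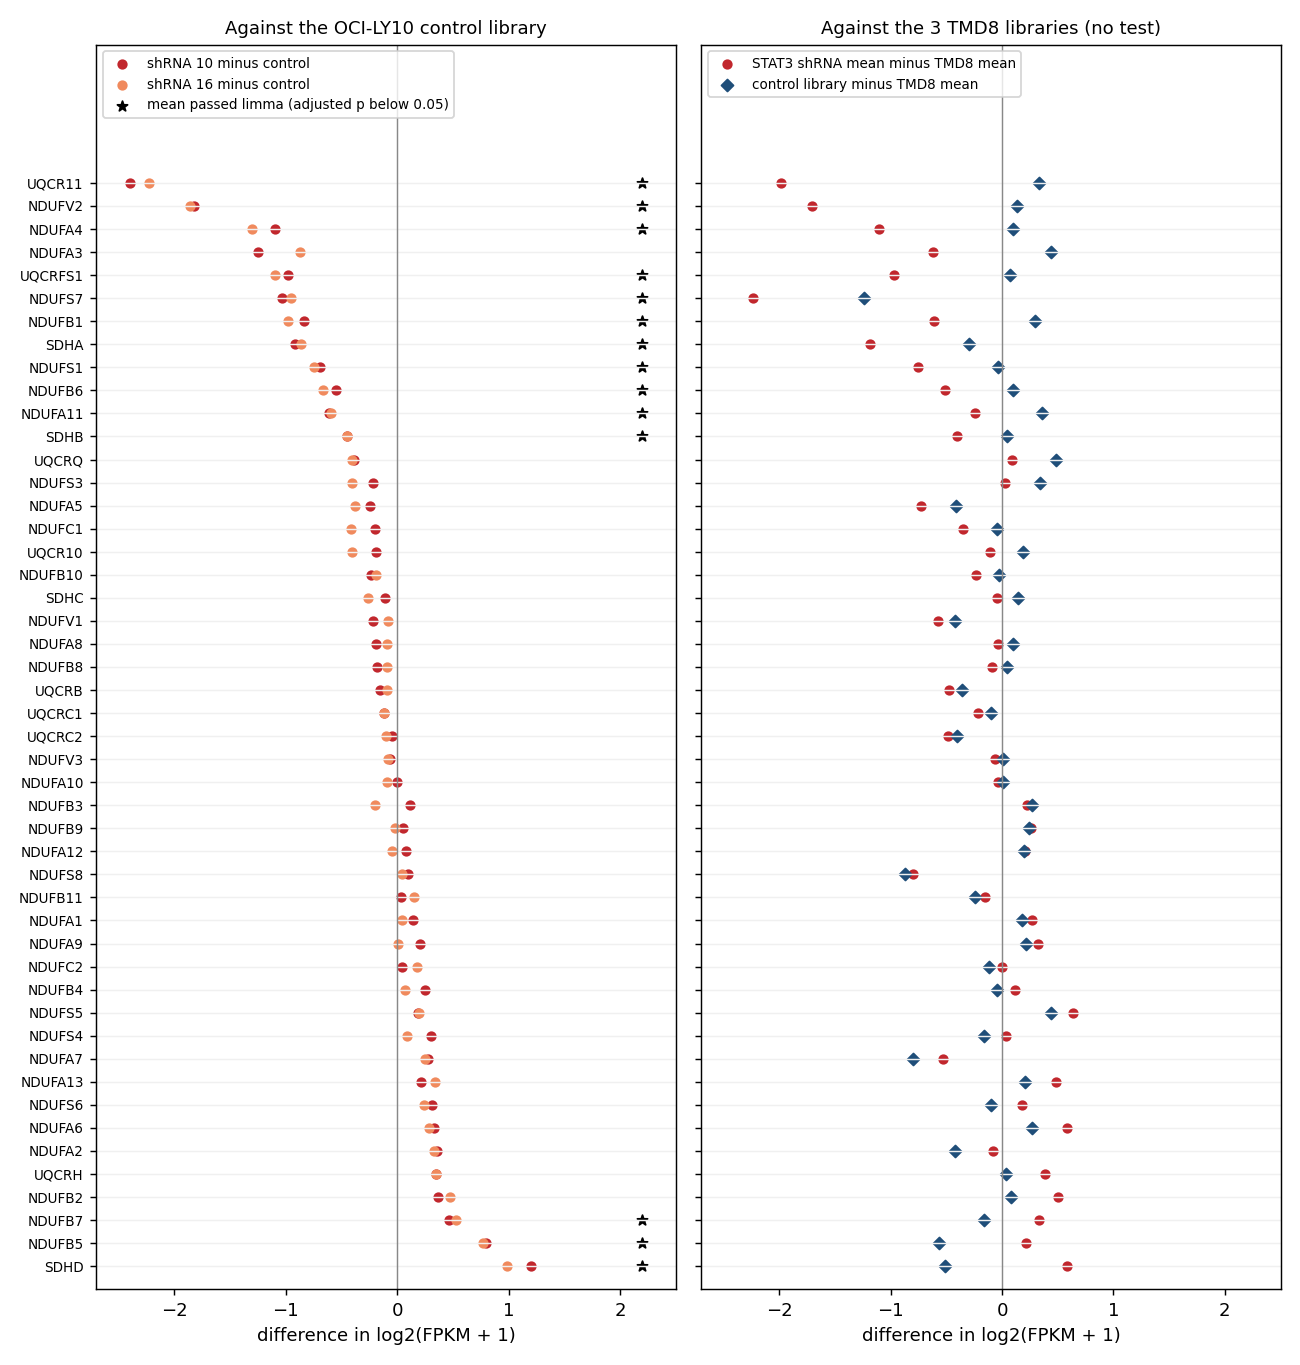
Differences in log2(FPKM + 1) for 48 of the 49 subunits, in the order of the difference between STAT3 shRNA and control. Left, each STAT3 shRNA library minus the control library, with a star for the 14 subunits that passed limma; right, the STAT3 shRNA mean (red) and the control library (blue) minus the mean of the 3 TMD8 libraries. The largest decreases against the control are also decreases against TMD8. Both panels use the same STAT3 shRNA libraries and the control library resembled TMD8, so this is not separate evidence.

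NDUFV2, a core complex I subunit that carries an iron-sulfur cluster in the NADH-oxidising arm, had 106 and 103 FPKM with STAT3 shRNA 10 and 16, against 378 FPKM with control shRNA. The 3 TMD8 columns had 362, 300 and 375 FPKM. Both STAT3 shRNA libraries were thus far below all 4 others (log2 difference from control -1.84 ± 0.09 SE, adjusted p = 0.00945). NDUFS7, the core subunit with the iron-sulfur cluster next to the ubiquinone site, had 40.5 and 43.0 FPKM with STAT3 shRNA, 84.3 FPKM with control shRNA and 229, 232 and 153 FPKM in TMD8. Here the control library was itself below all 3 TMD8 columns, and the STAT3 shRNA libraries were lower again (-0.997 ± 0.09 SE, adjusted p = 0.0198). NDUFS1, the largest iron-sulfur subunit of complex I, had 39.9 and 38.4 FPKM with STAT3 shRNA, 65.1 FPKM with control shRNA and 62.3 to 73.2 FPKM in TMD8 (-0.72 ± 0.09 SE, adjusted p = 0.0267). Its control value lay inside the TMD8 range. Among the core subunits that did not pass the test, the log2 difference was -0.32 for NDUFS3, -0.15 for NDUFV1, which binds NADH and the flavin, and 0.07 for NDUFS8.

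Of the accessory subunits, NDUFA4 fell most. It had 44.0 and 37.8 FPKM with STAT3 shRNA, 95.0 FPKM with control shRNA and 84.9 to 94.1 FPKM in TMD8 (-1.20 ± 0.14 SE, adjusted p = 0.0251). Though named for complex I, NDUFA4 is now assigned to complex IV. NDUFB1, in the membrane arm, had 95.3 and 85.8 FPKM with STAT3 shRNA, 171 FPKM with control shRNA and 121 to 163 FPKM in TMD8 (-0.91 ± 0.12 SE, adjusted p = 0.0274). NDUFB6, also in the membrane arm, had 61.8 and 57.0 FPKM with STAT3 shRNA, 90.7 FPKM with control shRNA and 76.8 to 93.5 FPKM in TMD8 (-0.60 ± 0.10 SE, adjusted p = 0.0419). For these 3 genes both STAT3 shRNA libraries were below all 4 others. NDUFA11, another membrane arm subunit, had 128 and 129 FPKM with STAT3 shRNA and 196 FPKM with control shRNA (-0.60 ± 0.08 SE, adjusted p = 0.0311), but 120 to 179 FPKM in TMD8, so its STAT3 shRNA values lay inside the TMD8 range.

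NDUFA3 had a larger difference than NDUFB1 but did not pass the test. It had 220 and 286 FPKM with STAT3 shRNA, against 525 FPKM with control shRNA, a log2 difference of -1.06 ± 0.22 SE (adjusted p = 0.0559). The ratio of shRNA 16 to shRNA 10, 1.30 on the FPKM + 1 scale, was the highest of the 49 subunits. NDUFB5 and NDUFB7, both in the membrane arm, rose. NDUFB5 had 134 and 131 FPKM with STAT3 shRNA, 76.2 FPKM with control shRNA and 108 to 120 FPKM in TMD8 (0.79 ± 0.08 SE, adjusted p = 0.0226). NDUFB7 had 165 and 172 FPKM with STAT3 shRNA, 119 FPKM with control shRNA and 121 to 141 FPKM in TMD8 (0.50 ± 0.09 SE, adjusted p = 0.0449). The STAT3 shRNA libraries were above all others for both genes. The difference for NDUFB5 was larger against the control than against TMD8 (0.22), since its control library was the lowest of the 6.

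Complex II moved in both directions. SDHA, the flavoprotein that oxidises succinate, had 40.3 and 42.1 FPKM with STAT3 shRNA, against 77.2 FPKM with control shRNA and 93.0 to 96.9 FPKM in TMD8 (-0.89 ± 0.09 SE, adjusted p = 0.0210). SDHB, the iron-sulfur subunit, had 115.1 FPKM in both STAT3 shRNA libraries, 158 FPKM with control shRNA and 143 to 163 FPKM in TMD8 (-0.45 ± 0.08 SE, adjusted p = 0.0468). Both genes were lower in the OCI-LY10 STAT3 shRNA libraries than in any other library, and the others include TMD8 with STAT3 shRNA. SDHD, a membrane anchor that helps form the ubiquinone site, was instead highest with STAT3 shRNA, at 129 and 111 FPKM, against 55.6 FPKM with control shRNA and 73.7 to 84.9 FPKM in TMD8 (1.09 ± 0.14 SE, adjusted p = 0.0285). The other anchor, SDHC, had 41.2 and 37.0 FPKM with STAT3 shRNA, against 44.5 FPKM with control shRNA and 36.1 to 46.2 FPKM in TMD8, and did not pass the test (-0.19, adjusted p = 0.296). The summed complex II level was 326 and 305 FPKM with STAT3 shRNA, 335 FPKM with control shRNA and 363 to 376 FPKM in TMD8.

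In complex III, UQCR11, a small subunit of the complex, had the largest decrease of all 49 genes. It had 25.5 and 29.0 FPKM with STAT3 shRNA, against 139 FPKM with control shRNA and 107, 102 and 124 FPKM in TMD8 (-2.31 ± 0.13 SE, adjusted p = 0.0110). UQCRFS1, the Rieske iron-sulfur protein that passes electrons from ubiquinol, had 137 and 126 FPKM with STAT3 shRNA, 271 FPKM with control shRNA and 244 to 275 FPKM in TMD8 (-1.04 ± 0.10 SE, adjusted p = 0.0208). In both genes the STAT3 shRNA libraries stood apart below the other 4. UQCRH had 1047 and 1048 FPKM with STAT3 shRNA, 823 FPKM with control shRNA and 787 to 812 FPKM in TMD8, and did not pass the test (0.35 ± 0.10 SE, adjusted p = 0.0902). UQCRC2, a large scaffold protein of the complex, had a difference of -0.08. UQCRQ, with 57.2 and 56.6 FPKM against 75.2 FPKM with control shRNA, had -0.40 (adjusted p = 0.0577), and its STAT3 shRNA values lay at the upper end of the 48.6 to 57.2 FPKM of TMD8.

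**Figure D3:**
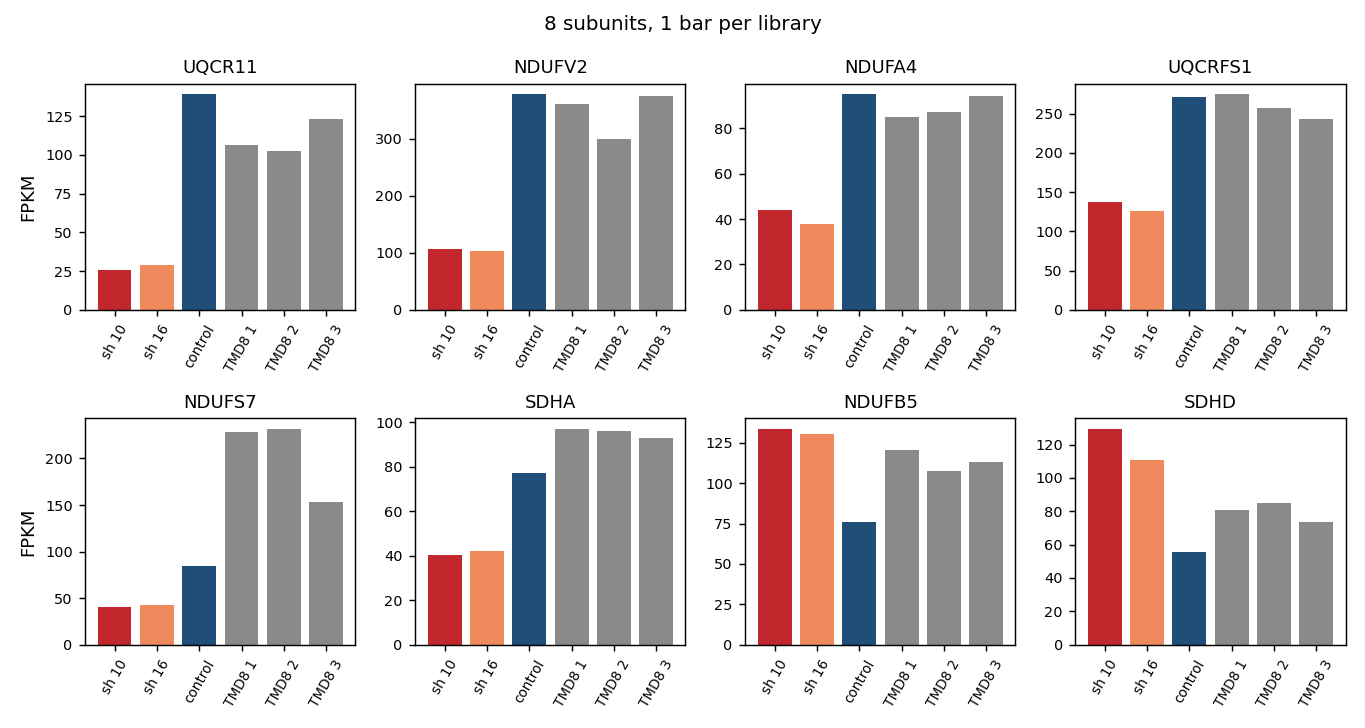
FPKM of 8 subunits in each library, 1 bar per library and a linear axis from 0 for each gene; grey bars are the 3 TMD8 columns in file order. UQCR11, NDUFV2, NDUFA4, UQCRFS1, NDUFS7 and SDHA are lowest in both STAT3 shRNA libraries, and NDUFB5 and SDHD are highest there.

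The 35 subunits that did not pass had log2 differences from -1.06 to 0.42, the lowest being NDUFA3 and the highest NDUFB2, and 31 of them lay within 0.35 of 0. At an unadjusted p below 0.05, 14 subunits (28.6%) were lower and 7 (14.3%) higher, against 23.3% and 29% of all tested genes. Of the 14 that passed, 8 also passed in all 8 other fits with changed settings: NDUFV2, NDUFS7, NDUFS1, NDUFA11, NDUFB5, SDHA, UQCR11 and UQCRFS1. NDUFA4, NDUFB1, NDUFB6 and SDHD missed the threshold only with no filter on low values, with adjusted p of 0.0649, 0.0640, 0.0752 and 0.0715. NDUFB7 and SDHB passed in only 4 of the 8 fits. NDUFB7 missed with no filter (adjusted p = 0.0641), after median-of-ratios scaling (0.0599) or quantile normalization (0.0523), and with no mean-variance trend (0.0503). SDHB missed at a pseudocount of 5 FPKM (adjusted p = 0.0511), with no filter (0.0544), with a filter at 5 FPKM (0.0511) and with no trend (0.0538). None of the 49 changed direction past the threshold in these 8 fits.

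The 2 shRNAs gave like subunit levels. The ratio of shRNA 16 to shRNA 10 ran from 0.805 for NDUFB3 to 1.30 for NDUFA3, and 0 subunits reached 1.5-fold in either direction. Of all tested genes, 2.55% reached 1.5-fold upward with shRNA 16 and 1.07% reached it downward. There was 1 library per shRNA and therefore no test. Among the 3 TMD8 columns, 4 subunits (8.16%) differed at least 1.5-fold between the highest and lowest, against 11.5% of all genes. These were NDUFS8, a core iron-sulfur subunit (1.75-fold), NDUFA2 (1.53-fold), NDUFA12 (1.51-fold) and NDUFS7 (1.51-fold), whereas UQCRB differed by 1.01-fold.

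Against TMD8, the STAT3 shRNA libraries had 11 subunits lower and 1 higher. Here a gene counted when both STAT3 shRNA libraries lay outside the range of the 3 TMD8 libraries and the means differed at least 1.5-fold on the FPKM + 1 scale. The 2 lines come from separately deposited tables, so no test was made across them. The 11 lower subunits were 22.4% of the 49, against 26.9% of the 11340 genes averaging 1 FPKM or more in the 6 libraries. The 1 higher subunit was 2.04%, against 23.4% of genes. The largest log2 differences from TMD8 were -2.24 for NDUFS7, -1.98 for UQCR11, -1.71 for NDUFV2 and -1.19 for SDHA. The others were NDUFA4 (-1.10), UQCRFS1 (-0.97), NDUFS8 (-0.80), NDUFS1 (-0.75), NDUFA5 (-0.73), NDUFA3 (-0.62) and NDUFB1 (-0.61). Of the 11 subunits that fell against the control, 8 were thus also lower than TMD8. Since the control library resembled TMD8, this count is not separate evidence. The single higher subunit was NDUFS5, an accessory subunit on the intermembrane side, with 172 and 173 FPKM with STAT3 shRNA against 97.7 to 126 FPKM in TMD8. Its control library had 151 FPKM.

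The control library differed from TMD8 in 3 subunits (6.12%), all lower, and in 0 higher, by the same fold and range. All genes gave 15% lower and 11.3% higher. The 3 were NDUFS7 (log2 difference -1.24), NDUFS8 (-0.87) and NDUFA7 (-0.80), an accessory subunit. NDUFS8 had 55.0 and 53.1 FPKM with STAT3 shRNA and 51.5 FPKM with control shRNA, against 68.4 to 120 FPKM in TMD8, and NDUFA7 had 64.8 and 63.3 FPKM with STAT3 shRNA and 53.2 FPKM with control shRNA, against 73.4 to 108 FPKM in TMD8. For these genes all 3 OCI-LY10 libraries were below all 3 TMD8 libraries. The control library lay within the TMD8 range for 16 subunits (32.7%), against 24.2% of all genes. The library with shRNA 10 lay within it for 11 subunits (22.4%), against 13.8% of genes. That with shRNA 16 did so for 14 (28.6%), against 14.4% of genes.

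The median absolute log2 difference from TMD8 was 0.35 over the 49 subunits with STAT3 shRNA and 0.19 with control shRNA, and 35 of the 49 were further from TMD8 with STAT3 shRNA. Over all 11340 genes these medians were 0.62 and 0.33, and 7965 genes were further. Both STAT3 shRNA libraries were below the other 4 libraries for 19 subunits (38.8%), against 33.1% of genes. They were above them for 11 (22.4%), against 32.1% of genes. Among the subunits that passed the test against the control, 10 of 11 that fell and 3 of 3 that rose separated in this way, with NDUFA11 the exception. They had been picked for a difference from the control, which is among those 4 libraries and resembled TMD8. This count is therefore not separate evidence.

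Genes of linked pathways gave mixed results in OCI-LY10. Of 13 citric acid cycle enzymes tested, 7 fell and 1 rose, with a median log2 difference of -0.69. DLST, a subunit of the 2-oxoglutarate dehydrogenase complex, had 26.6 and 25.2 FPKM with STAT3 shRNA, 64.7 FPKM with control shRNA and 64.9 to 66.9 FPKM in TMD8 (-1.29, adjusted p = 0.0152). DLD (-1.06), OGDH (-0.996), SUCLG2, FH, MDH2 and CS also fell, while IDH3B rose (0.86, adjusted p = 0.0207). DLD, OGDH and DLST are the 3 components of the same enzyme complex. Like SDHA and SDHB, which work in the same cycle, all 3 had lower values in the OCI-LY10 STAT3 shRNA libraries than in the 4 others. The same held for SUCLG2, FH, MDH2 and CS. All these genes had been picked for a fall against the control, which is among those 4 libraries and resembled TMD8. This separation is therefore not separate evidence.

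Of 13 complex I assembly factors, 4 rose and 1 fell, with a median of 0.35. ACAD9, which joins the assembly intermediate of the membrane arm, had 39.3 and 40.3 FPKM with STAT3 shRNA, 15.5 FPKM with control shRNA and 7.37 to 10.2 FPKM in TMD8 (1.30, adjusted p = 0.0140). TMEM126B (1.11), ECSIT (0.82) and TIMMDC1 (0.55), partners in the same intermediate, rose too, although the STAT3 shRNA values of ECSIT, 39.0 and 44.2 FPKM, lay within the 33.4 to 44.4 FPKM of TMD8. NDUFAF1, another partner, fell, with 4.70 and 6.15 FPKM with STAT3 shRNA, 20.0 FPKM with control shRNA and 16.6 to 20.7 FPKM in TMD8 (-1.72, adjusted p = 0.0250). Of 7 tested assembly factors of complexes II and III, 0 rose and 2 fell, with a median of 0.18. LYRM7, which helps insert the Rieske protein UQCRFS1 into complex III, had 5.56 and 4.68 FPKM with STAT3 shRNA, 30.7 FPKM with control shRNA and 23.6 to 28.4 FPKM in TMD8 (-2.38, adjusted p = 0.0128). UQCC2, an assembly factor for cytochrome b, fell as well (-1.13, adjusted p = 0.0374).

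Of 10 listed complex IV subunits, 1 rose and 0 fell (median -0.16). That list leaves out NDUFA4, which fell and was counted by symbol with complex I. It was COX4I1, with 1077 and 1222 FPKM with STAT3 shRNA and 555 FPKM with control shRNA (1.05, adjusted p = 0.0288). Of 16 complex V genes, the ATP synthase, 4 rose and 2 fell (median 0.14). ATP5L had 290 and 288 FPKM with STAT3 shRNA, against 85.6 FPKM with control shRNA (1.74, adjusted p = 0.00976), and the inhibitor ATPIF1 (1.64), ATP5H (0.99) and ATP5G3 (0.94) rose too. ATP5D fell, with 69.8 and 78.6 FPKM against 178 FPKM (-1.25, adjusted p = 0.0203), and so did ATP5B (-0.79).

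Of 13 electron carriers and enzymes of ubiquinone synthesis, 4 fell and 1 rose (median -0.09). COQ2, which joins the ring and tail of ubiquinone, had 2.82 and 2.02 FPKM with STAT3 shRNA, against 16.0 FPKM with control shRNA (-2.33, adjusted p = 0.0182). ETFDH, another enzyme that feeds electrons to ubiquinone (-1.39), COQ6 (-0.92) and ETFA (-0.79) fell, and COQ3 rose (1.15). Among 10 tested regulators of mitochondrial biogenesis, TFB1M rose (0.67, adjusted p = 0.0376) and YY1 fell (-0.47, adjusted p = 0.0488), while the median was -0.05. Letters of YY1, NRF1 and GABPA were all counted in the promoters, and of these regulators NRF1 and GABPA did not pass the test.

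**Figure D4:**
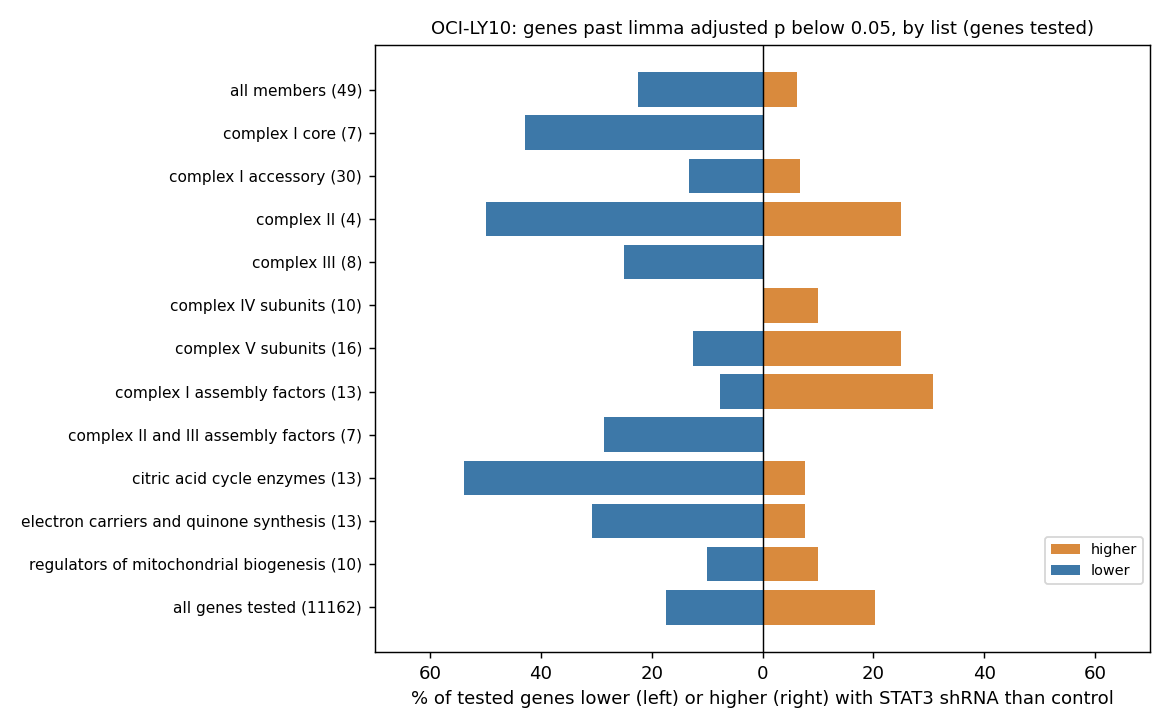
Share of tested genes that passed limma in OCI-LY10, lower to the left and higher to the right, for the subunits, each complex, linked pathways and all 11162 tested genes; the number tested is in parentheses. The subunits show 22.4% lower and 6.12% higher, against 17.4% and 20.3% of all genes.

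Copies of the subunit genes had low values. UQCRHL, a near copy of UQCRH, had 1.69 and 2.70 FPKM with STAT3 shRNA, 4.07 FPKM with control shRNA and 10.0 to 11.7 FPKM in TMD8, and did not pass the test. NDUFA4L2, a paralog of NDUFA4, fell, with 1.10 and 1.05 FPKM with STAT3 shRNA, 5.81 FPKM with control shRNA and 0.456 to 1.37 FPKM in TMD8 (-1.72, adjusted p = 0.0106). The SDHA copies SDHAP1, SDHAP2 and SDHAP3 ran from 2.03 to 6.36 FPKM with STAT3 shRNA and from 1.37 to 6.13 FPKM with control shRNA and did not pass. UQCRBP1 was at most 0.338 FPKM.

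Protein-coding genes that overlap a subunit gene or lie within 1000 bases of it in RefSeq (GRCh38.p14) were also examined, a choice made after the values were seen. Of the 14 subunits that passed, 7 have such a neighbour among the measured genes, 8 neighbours in all, of which 5 passed the test in the same direction as the subunit and 3 did not pass. Of all tested genes, 17.4% fell and 20.3% rose. Of 18 tested neighbours of subunits that did not pass, found by the same rule, 2 fell, 0 rose and 16 did not pass. The choice after the fact and the small numbers leave this a description. TIMM8B, a chaperone of the intermembrane space that lies beside SDHD, had 110 and 95.4 FPKM with STAT3 shRNA, 40.3 FPKM with control shRNA and 17.4 to 21.5 FPKM in TMD8 (1.33, adjusted p = 0.0219). EEF1B2, a translation elongation factor beside NDUFS1, had 1279 and 1238 FPKM with STAT3 shRNA, 2155 FPKM with control shRNA and 1956 to 2485 FPKM in TMD8 (-0.78, adjusted p = 0.0307). CPSF2 beside NDUFB1 (-0.93), and TOPORS (-0.62) and TOPORS-AS1 (-1.37) at NDUFB6, fell as well. RefSeq gives TOPORS-AS1 as a synonym of SMIM27, a protein-coding gene that overlaps NDUFB6, so without strand their reads cannot be told apart. MRPL47, TECR and CCDC127, beside NDUFB5, NDUFB7 and SDHA, did not pass.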

How the data were processed

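Per the labels' protocols, mRNA libraries were prepared with an Illumina TruSeq kit. The authors deposited FPKM values, 1 per gene and library, in a separate table for each line. TopHat, Bowtie2 and the build hg19 appear with no version or role per the submitters' processing notes. What tool and annotation produced the FPKM values, and whether libraries were scaled or strand was used, is not given in the sources used here. The 3 OCI-LY10 columns were matched to samples by name, and the 3 unnamed TMD8 columns only to that line. Each table has 25277 rows; the rows of 2 repeated symbols were summed, leaving 25275. Absolute depth is unknown. Ratios of low values gave a depth relative to shRNA 10 of 0.731 for shRNA 16 and 1.52 for the control, and in TMD8, relative to the first column, of 0.965 and 0.858.

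OCI-LY10 was tested with limma 3.58.1 (R 4.3.3), two-sided, on log2(FPKM + 1), with the empirical Bayes step following the mean-variance trend. This scale understates the change of low genes. The 11162 genes averaging 1 FPKM or more in OCI-LY10 entered, with Benjamini-Hochberg adjustment over all of them and a threshold of 0.05. The fit had 1 residual and 1.64 prior degrees of freedom, and the unobserved spread of the control was assumed to equal that between the STAT3 shRNAs. The fit was tested on simulated data before use. There the control was given the same spread as the STAT3 shRNA libraries, so that assumption was not checked. Alternatives changed the pseudocount, filter, scaling, trend, small RNA genes, fold threshold and shRNA libraries used.

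The subunits, lists and rules were chosen with earlier results of these data known. Named genes were STAT3, every subunit that passed, the extremes of each complex by difference and level, those furthest from TMD8, those most unlike between libraries, up to 3 passing genes at each end of the other lists, and copies. Some genes that this rule names are not reported here. Others were chosen after their values were seen. Promoter sequences and neighbours came from RefSeq (GRCh38.p14) tables, which matched 48 of 49 subunits by symbol and are used for names, sequence and neighbours only.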

Additional observations from a re-analysis of the deposited data

How the results depend on the processing

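With no filter on low values, 8 subunits passed (1 higher, 7 lower) in place of 14 (3 and 11). The median log2 difference of the 49 subunits was -0.19 after median-of-ratios scaling and -0.15 after quantile normalization, against -0.12 as deposited. Over all tested genes the median moved down too, to -0.007 and 0.04, against 0.06 as deposited. With either STAT3 shRNA library left out, the median of the 49 subunits was -0.11 to -0.090. In the comparison of STAT3 shRNA with TMD8, 3 subunits were higher at a pseudocount of 0.1 FPKM and 3 after median-of-ratios scaling, in place of 1. At a fold of at least 2, that comparison had 0 higher and 5 lower, the control library had 1 lower than TMD8, and 0 subunits differed between TMD8 columns. The cause was not tested. The other settings gave 12 to 18 subunits passing. Leaving out small RNA genes added 4 subunits, among them NDUFA3 (adjusted p = 0.0225), NDUFB2 (0.0463) and UQCRQ (0.0413) in limma, and UQCRQ also passed after both scalings. No paired analysis was possible because the OCI-LY10 groups share fewer than 2 replicate numbers and the TMD8 columns carry none. With 1 control library and unknown absolute depth, neither the spread of the control nor counting error could be given, and log2 differences of low-level genes are understated.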
